A study of Mus musculus with 4 samples.

Results

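The constitutive proteasome subunits and activators were taken as all genes whose annotated symbol begins with Psma, Psmb, Psmc, Psmd, Psme, Psmf or Psmg, leaving out the inducible subunits Psmb8, Psmb9 and Psmb10. There were 45 such genes among the 12393 named genes of the Affymetrix MOE430A array, and each was represented by its probe set with the highest mean over the 4 arrays. They comprised 15 genes for subunits of the core particle, 17 for subunits of the regulatory particle, 3 for chaperones of the regulatory particle, 3 for activators, 1 for an inhibitor and 4 for core assembly chaperones. The remaining 2, Psmc3ip (a meiotic recombination protein) and Psme3ip1 (a partner of Psme3), fit the symbol rule but encode no proteasome subunit. Psme2 had no value of its own, because its probe set was also assigned to Psme2b.

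The proteasome is the protease that degrades most ubiquitin-tagged proteins in the cytosol and nucleus. Its core particle is a barrel of stacked alpha and beta rings with the active sites inside, and its regulatory particle caps the barrel, binds the ubiquitin chain, removes it and threads the unfolded substrate inward with a ring of ATPases. In mammalian cells the genes of both particles are known to be regulated as a set, with the transcription factor Nfe2l1 acting on them through antioxidant response elements when proteasome activity is impaired.

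Livers came from male mice of 12 to 20 weeks in groups of 5, and RNA was pooled within each group and hybridized to 1 array. The sources also give the number of livers in a pool as a range, so that a pool may hold fewer livers than its group had mice. PPARα-null mice (129S4/SvJae) received food with 0.1% (w/w) Wy14643, a synthetic agonist of the nuclear receptor PPARα, or normal food for 5 days, and wild-type mice (129S1/SvImJ) received the same 2 diets. With 1 array per group no difference given here has a replicate check and no p-value is given, and the small number of arrays limits how precise any ratio is. The genotypes carry different 129 substrain names in the labels, so that strain and genotype cannot be told apart. The title of the wild-type Wy14643 array names the treatment while its free description names control conditions, and the title was followed.

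Ppara, the disrupted gene, had intensities of 428 on Wy14643 and 326 on control food in PPARα-null livers, against 1250.1 and 847 in wild-type livers, and whether its probe set lies in the deleted part is not given in the sources used here. An intensity of 14.1 was taken as background. It is the value under which 90% of the intensities lay, over the 4 arrays, for the 68 probe sets of 47 genes that liver does not express. The 4 arrays had medians of 14.2 to 14.6, and all 7 measured hepatocyte markers were above background on every array. Of the proteasome genes, 42 were above background on all arrays, Psma8 was above it on 3, and Psmc3ip and Psmg4 were above it on none.

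Feeding Wy14643 to wild-type mice was accompanied by higher expression of a large share of the proteasome genes. At a threshold of 1.5-fold, which is 0.585 on the log2 scale, 26 of 45 (57.8%) were higher on Wy14643 than on control food in wild-type livers, against 9.38% of all named genes. None was lower, against 10% of all named genes. The median log2 ratio of the proteasome genes was 0.76 and that of all named genes 0.04. A ratio above 0 was found for 42 of the 45, and for 6803 of all 12393 named genes. At 2-fold 16 were higher, against 4.21% of all named genes, and none lower, against 4.62%. In PPARα-null livers the same comparison found none of the 45 genes higher and none lower, where 1.49% of all named genes were higher and 2.74% lower. The median there was 0.05, with a range of -0.51 for Psmd14 to 0.33 for Psmd13. The log2 ratios of all named genes had a standard deviation of 0.28 in PPARα-null livers and 0.70 in wild-type livers.

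**Figure D1:**
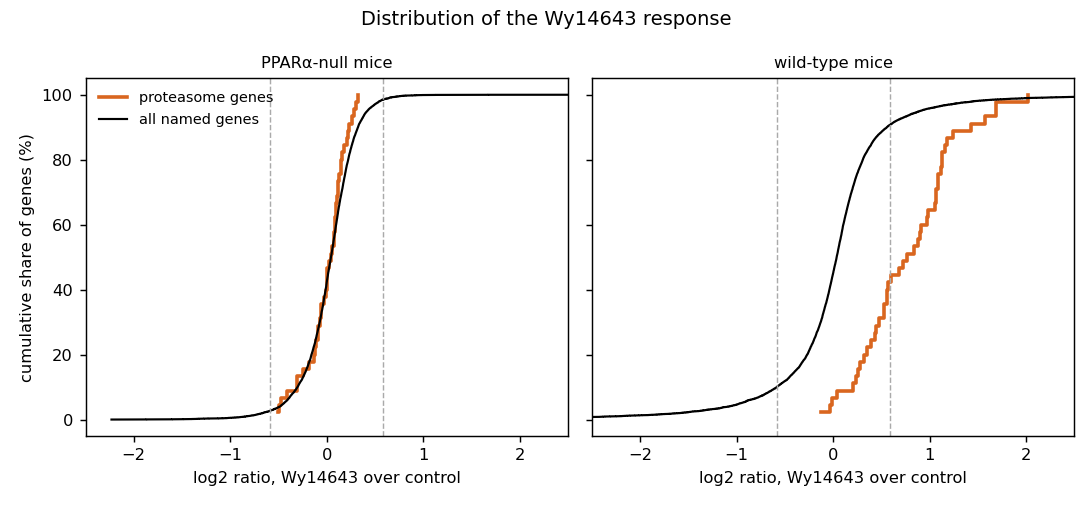
Cumulative share of genes (vertical axis, percent) against the log2 ratio of intensity, Wy14643 over control food (horizontal axis), in PPARα-null livers (left) and wild-type livers (right), for the 45 proteasome genes (orange) and all 12393 named genes (black), with dashed lines at 1.5-fold. The 2 curves lie over each other in PPARα-null livers, where the medians are 0.05 and 0.04, and stand apart in wild-type livers, where they are 0.76 and 0.04.

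On the Wy14643 diet 27 of the 45 genes (60%) were lower by 1.5-fold or more in PPARα-null than in wild-type livers, against 10.4% of all named genes, and none was higher, against 11.2%. The median log2 ratio of PPARα-null over wild-type was -0.71, and that of all named genes was 0.00. At 2-fold 15 were lower, against 5.16% of all named genes, and none higher, against 5.62%. On control food none of the 45 genes was at least 1.5-fold higher or lower in PPARα-null livers, where 1.51% of all named genes were higher and 1.49% lower, and the median ratio was 0.01. The wild-type Wy14643 array enters both the diet ratio in wild-type livers and the genotype ratio on Wy14643, so the 2 sets of values are not independent of each other. Of the 45 genes, 39 had their highest intensity on that array, 4 on the PPARα-null Wy14643 array, 1 on the PPARα-null control array and 1 on the wild-type control array. The highest array was not counted over all named genes.

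Since most proteasome genes are well expressed in liver, the same shares were taken over the 6926 named genes whose mean was above background. In wild-type livers 15.3% of these were higher on Wy14643 and 17.2% lower, and 19.2% were higher and 17.3% lower in PPARα-null than in wild-type livers on Wy14643. The proteasome genes thus exceeded the larger background as well, in the direction higher on Wy14643 in wild-type livers and lower in PPARα-null livers.

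**Figure D2:**
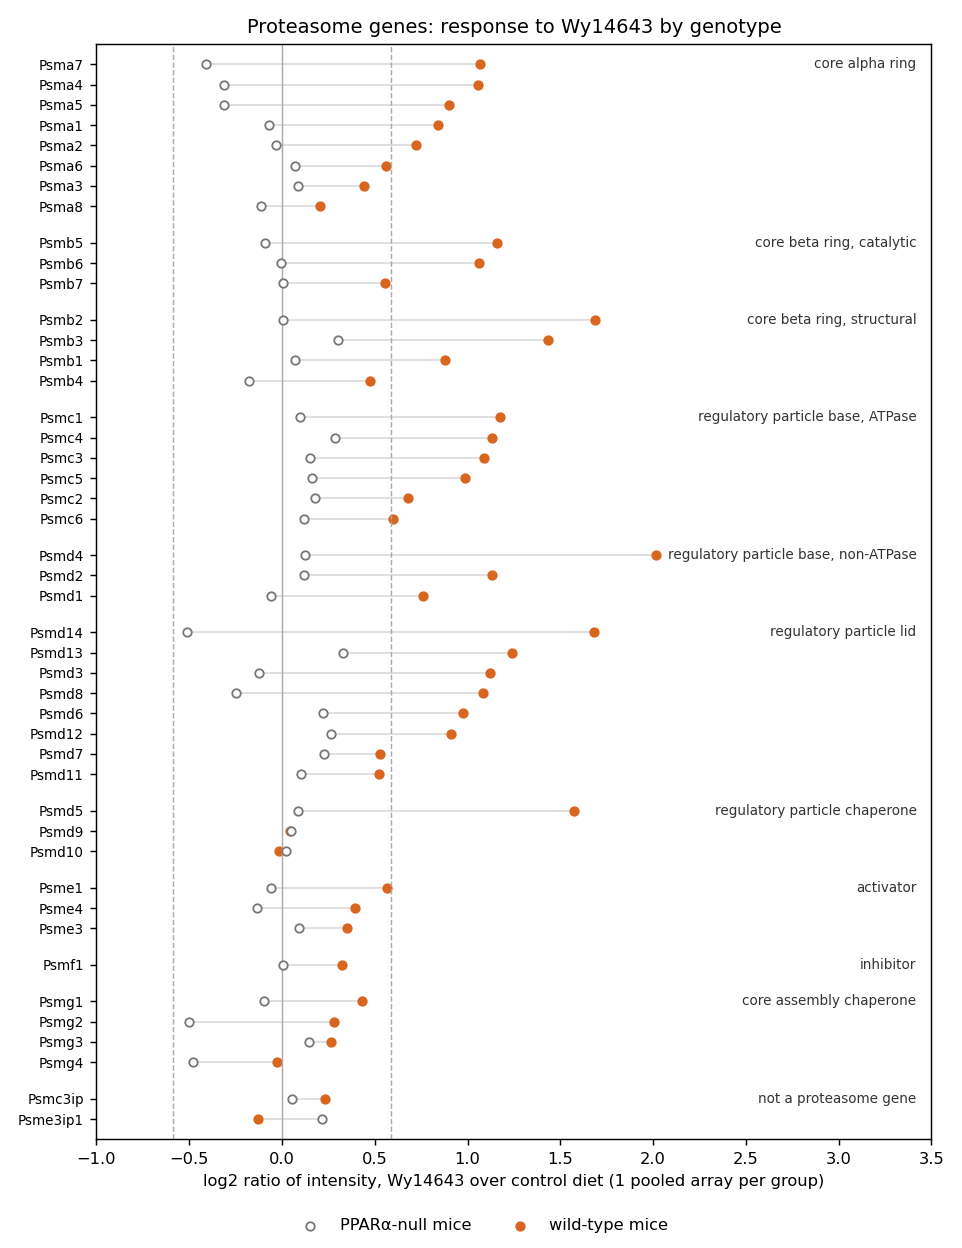
Log2 ratio of intensity, Wy14643 over control food (horizontal axis), for each of the 45 genes grouped by role, in PPARα-null livers (open circles) and wild-type livers (filled circles), with 1 pooled array per group and dashed lines at 1.5-fold. In PPARα-null livers all points lie between the dashed lines, while in wild-type livers most subunits of the core and regulatory particles lie to the right of them, up to 2.01 for Psmd4.

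Promoters were examined because the members moved together, using the 250 bases before the annotated transcription start from RefSeq (build GRCm38.p6), which were available for 37 of the 45 genes as 40 promoters. Of these 4 are shown, Psmd4 and Psmd14 for their large ratios in wild-type livers, and Psmb5 and Psmb6 as catalytic subunits whose window held an antioxidant response element core. They lie at chr3:95042615-95042864 (minus strand), chr2:61711444-61711693 (plus strand), chr14:54617996-54618245 (minus strand) and chr11:70525107-70525356 (plus strand), are written 5′ to 3′ and end at the base before the start. Capitals mark the antioxidant response element core TGACNNNGC or the NF-Y box CCAAT on either strand.
Psmd4: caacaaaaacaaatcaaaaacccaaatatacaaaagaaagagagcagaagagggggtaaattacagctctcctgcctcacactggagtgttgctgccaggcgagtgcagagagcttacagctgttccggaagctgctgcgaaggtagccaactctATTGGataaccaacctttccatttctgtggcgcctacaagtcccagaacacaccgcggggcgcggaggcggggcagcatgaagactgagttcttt
Psmd14: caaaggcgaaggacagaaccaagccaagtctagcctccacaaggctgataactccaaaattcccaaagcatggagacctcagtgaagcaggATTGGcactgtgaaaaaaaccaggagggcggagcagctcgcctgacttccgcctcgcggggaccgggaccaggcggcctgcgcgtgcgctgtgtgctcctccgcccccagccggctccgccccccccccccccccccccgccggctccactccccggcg
Psmb5: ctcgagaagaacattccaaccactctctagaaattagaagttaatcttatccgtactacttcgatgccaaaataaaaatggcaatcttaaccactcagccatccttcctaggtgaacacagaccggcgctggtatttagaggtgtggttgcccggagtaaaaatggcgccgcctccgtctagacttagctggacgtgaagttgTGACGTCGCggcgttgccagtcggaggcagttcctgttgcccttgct
Psmb6: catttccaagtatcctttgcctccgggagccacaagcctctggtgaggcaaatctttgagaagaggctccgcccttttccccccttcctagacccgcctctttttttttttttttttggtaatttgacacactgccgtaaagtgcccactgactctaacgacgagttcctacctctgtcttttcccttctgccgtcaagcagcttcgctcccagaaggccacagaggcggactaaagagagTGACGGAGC

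The match began 47 bases before the start in Psmb5 and 9 bases before it in Psmb6, and the NF-Y box lay 95 bases before the start of Psmd4 and 159 before that of Psmd14, both on the opposite strand. TGACNNNGC was found, on either strand, in 5 of the 40 promoters (12.5%), those of Psmb5, Psmb6, Psmc6, Psmd9 and Psmd12, against 10.2% of 32851 promoters of the same length. CCAAT was found in 14 of 40 (35%), against 33.8% of all promoters. The direct repeat AGGNCANAGGNCA, a form of the PPAR response element, was found in none of the 40 and in 0.338% of all promoters. Each of the 4 sequences shown holds 1 match, so no motifs overlap in them.

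In the core particle, the 3 catalytic subunits were measured at high intensity. Psmb5, which carries the chymotrypsin-like activity, had 1051 on Wy14643 and 1119 on control food in PPARα-null livers, against 2361 and 1057 in wild-type livers. Psmb6, with the caspase-like activity, had 1328 and 1331 in PPARα-null livers, against 2676 and 1283 in wild-type livers. For both genes the wild-type Wy14643 array stood apart from the other 3 arrays, which lay close together, and the ratio of Wy14643 over control in wild-type livers was 2.23-fold for Psmb5 and 2.09-fold for Psmb6. Psmb7, with the trypsin-like activity, had 2739 and 2726 in PPARα-null livers, against 3913 and 2664 in wild-type livers. Its pattern was the same in shape, with a 1.47-fold ratio that did not reach the threshold.

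**Figure D3:**
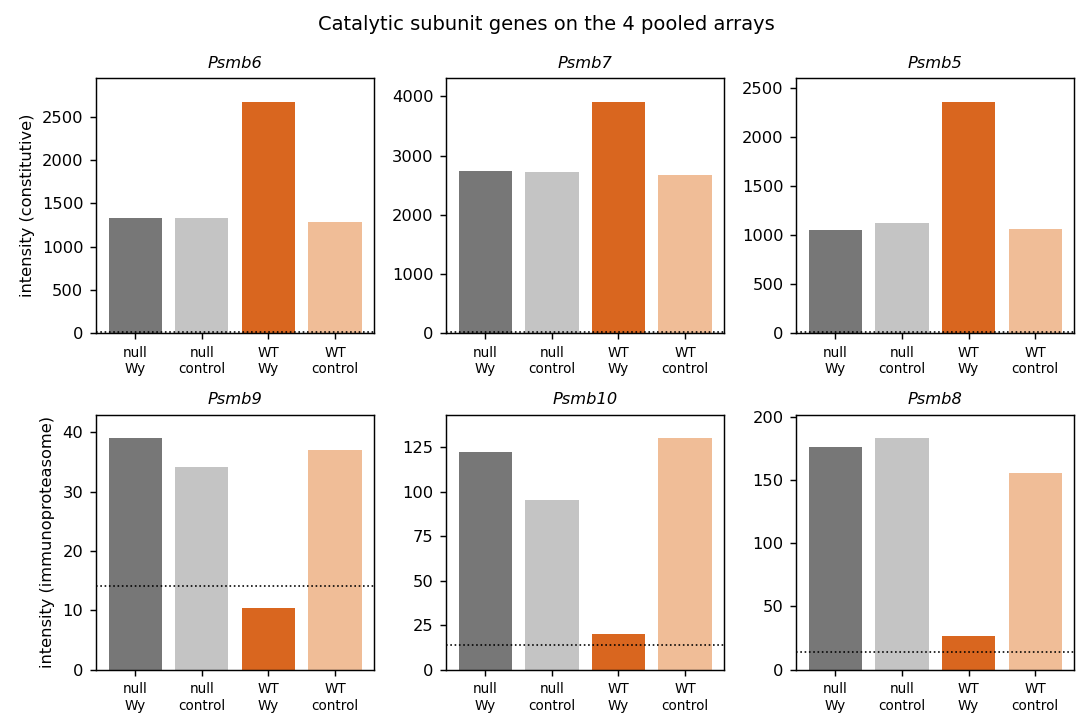
Intensity (vertical axes, linear, starting at 0) of the constitutive catalytic subunits Psmb6, Psmb7 and Psmb5 (top) and of the inducible subunits Psmb9, Psmb10 and Psmb8 that can take their places (bottom), 1 bar per pooled array, with the background of 14.1 dotted. The wild-type Wy14643 bar is the highest of 4 in every top panel and the lowest of 4 in every bottom panel.

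Psmb2 and Psmb3, which have no active site, had the largest ratios of the core particle. Psmb2 had 35.4 on Wy14643 and 35.3 on control food in PPARα-null livers, against 113 and 35.2 in wild-type livers, a 3.21-fold ratio in wild-type livers. Psmb3 had 1325 and 1077 in PPARα-null livers, against 3037 and 1126 in wild-type livers, a 2.70-fold ratio. In both, the wild-type Wy14643 array lay far above the other 3, while Psmb1 had a log2 ratio of 0.88 and Psmb4, at 0.48, stayed under the threshold. Of the 7 beta subunits 5 were thus at least 1.5-fold higher on Wy14643 in wild-type livers, and 5 were lower in PPARα-null than in wild-type livers on Wy14643.

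The alpha subunits form the outer rings of the barrel and its gate. Psma7 had the largest ratio of the 8, with 558 on Wy14643 and 741 on control food in PPARα-null livers, against 1662 and 792 in wild-type livers. The ratio was 2.10-fold in wild-type livers and -0.41 on the log2 scale in PPARα-null livers, where the Wy14643 array was the lowest of the 4. Psma4 and Psma5 shared this shape, with log2 ratios of 1.06 and 0.90 in wild-type livers and -0.31 for each in PPARα-null livers. Psma1 (0.84) and Psma2 (0.72) also passed the threshold in wild-type livers, whereas Psma6 (0.56) and Psma3 (0.44) did not. Psma8, a subunit of the testis proteasome, lay near background with 15.4 and 16.7 in PPARα-null livers, against 14.6 and 12.6 in wild-type livers. Of the alpha subunits 5 of 8 were thus higher on Wy14643 in wild-type livers, with a median log2 ratio of 0.78, and 6 of 8 were lower in PPARα-null livers on Wy14643, with Psma6 at -0.59 just past the threshold.

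The 6 ATPases of the regulatory particle base, which unfold the substrate and open the gate, were all at least 1.5-fold higher on Wy14643 in wild-type livers, with log2 ratios of 0.60 for Psmc6 to 1.18 for Psmc1. Psmc1 had 522 on Wy14643 and 487 on control food in PPARα-null livers, against 1268 and 562 in wild-type livers, and Psmc3 had 1088 and 980.4, against 1906 and 898. For both, the wild-type Wy14643 array was the only one to stand clear of the rest. Psmc4 had 683 and 560.5 in PPARα-null livers, against 926 and 422 in wild-type livers, and here the 2 PPARα-null arrays lay between the 2 wild-type arrays. Its ratio of Wy14643 over control was 2.19-fold in wild-type livers, yet that of PPARα-null over wild-type was -0.44 on Wy14643 and 0.41 on control food, so that only 3 of the 6 ATPases (Psmc1, Psmc3 and Psmc5) were lower past the threshold in PPARα-null livers on Wy14643. By its second probe set, with a genotype ratio of -1.07 on Wy14643 and -0.07 on control food, Psmc4 would be among them, and so would Psmc2, whose second probe set had -1.22 on Wy14643 and 0.05 on control food, against -0.47 by the brightest.

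The largest ratio of all 45 genes was that of Psmd4, a ubiquitin receptor of the regulatory particle. It had 793 on Wy14643 and 729 on control food in PPARα-null livers, against 3549 and 878 in wild-type livers. This was a 4.04-fold ratio of Wy14643 over control in wild-type livers and a 4.47-fold lower intensity in PPARα-null than in wild-type livers on Wy14643. The scaffold subunit Psmd2 had 648 and 598 in PPARα-null livers, against 1531 and 699 in wild-type livers, a 2.19-fold ratio. The other scaffold, Psmd1, had a log2 ratio of 0.76. All 3 non-ATPase members of the base were thus higher on Wy14643 in wild-type livers and lower in PPARα-null livers on Wy14643.

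Among the 8 members in the lid, Psmd14, the deubiquitinase that releases the ubiquitin chain, had the largest ratio. It had 199.7 on Wy14643 and 284 on control food in PPARα-null livers, against 946 and 294 in wild-type livers. The ratio of Wy14643 over control was 3.21-fold in wild-type livers and -0.51 on the log2 scale in PPARα-null livers, the lowest of the 45 genes, and the genotypes differed 4.74-fold on Wy14643, the largest difference of the 45 genes, with PPARα-null lower. Psmd7, the partner of Psmd14, had a log2 ratio of 0.53 and did not reach the threshold.

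The lid subunits Psmd13, Psmd3 and Psmd8 had similar ratios in wild-type livers. Psmd13 had 105 on Wy14643 and 84.1 on control food in PPARα-null livers, against 197 and 83.5 in wild-type livers (2.36-fold). Psmd3 had 67.0 and 72.9 in PPARα-null livers, against 146 and 67.0 in wild-type livers (2.18-fold). Psmd8 had 418 and 498 in PPARα-null livers, against 1135 and 536 in wild-type livers (2.12-fold). In PPARα-null livers the ratios of these 3 genes ran to both sides of 0, with 0.33 for Psmd13, -0.12 for Psmd3 and -0.25 for Psmd8. Psmd6 and Psmd12 also passed the threshold in wild-type livers, with log2 ratios of 0.97 and 0.91. Psmd11, at 0.52, was the lowest of the members in the lid. Of the members in the lid, 6 of 8 were higher on Wy14643 in wild-type livers. On Wy14643, 7 of 8 were lower in PPARα-null livers, all but Psmd12, which at -0.58 lay just outside.

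Over the members in both particles and without Psma8, 25 of 31 were at least 1.5-fold higher on Wy14643 in wild-type livers. All 31 had a ratio above 0, and the median was 0.99. Subunits with other symbols are not in these counts, such as Sem1 of the lid with 0.09 in wild-type livers. The core particle had a median of 0.89 over 14 subunits and the regulatory particle one of 1.08 over 17. On Wy14643, 24 of the 31 were lower past the threshold in PPARα-null than in wild-type livers.

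Outside the 2 particles the picture was mixed. Psmd5, Psmd9 and Psmd10 are chaperones that hold the ATPases during assembly of the base and are absent from the finished proteasome. Psmd5 had 193 on Wy14643 and 182 on control food in PPARα-null livers, against 482 and 162 in wild-type livers, a 2.98-fold ratio in wild-type livers. Psmd9 and Psmd10 had log2 ratios of 0.04 and -0.01 in wild-type livers, so 1 of the 3 chaperones behaved like the subunits.

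The activators open the gate of the core particle without ATP. Psme1 had 695 on Wy14643 and 724 on control food in PPARα-null livers, against 1026 and 694 in wild-type livers, a 1.48-fold ratio just short of the threshold. Psme4 had 648 and 713 in PPARα-null livers, against 852 and 649.8 in wild-type livers (1.31-fold). In both the wild-type Wy14643 array was the highest, but by their brightest probe sets none of the 3 activators passed the threshold in any comparison. Another probe set of Psme4, above background on all arrays, had 1.12 for Wy14643 over control in wild-type livers. Its ratio of PPARα-null over wild-type on Wy14643 was -1.57, while a further probe set had 0.32 and -0.48. Psme3, found in the nucleus, had 100.1 and 93.9 in PPARα-null livers, against 86.0 and 67.5 in wild-type livers, with both PPARα-null arrays above both wild-type arrays. Its log2 ratio of PPARα-null over wild-type on control food, 0.48, was the highest of the 45 genes. A dimmer probe set of Psme3 had the opposite sign on Wy14643, with 14.6 in PPARα-null livers and 23.9 in wild-type livers, a log2 ratio of -0.71 that passed the threshold, so the direction for this gene depends on the probe set.

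Psmf1, an inhibitor of the isolated core particle, had 50.6 on Wy14643 and 50.5 on control food in PPARα-null livers, against 86.2 and 69.0 in wild-type livers. The PPARα-null arrays were below the wild-type arrays on both diets, with a 1.71-fold lower intensity on Wy14643 and a log2 ratio of -0.45 on control food, the lowest of the 45 genes there.

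The core assembly chaperones Psmg1 to Psmg4 guide the alpha ring and are not part of the finished core. By their brightest probe sets none was at least 1.5-fold higher on Wy14643 in wild-type livers. Psmg1 had 190.4 on Wy14643 and 203 on control food in PPARα-null livers, against 257 and 191 in wild-type livers. Psmg2 had 261 and 369.5 in PPARα-null livers, against 424 and 349 in wild-type livers. The Psmg2 values differed 1.62-fold between the genotypes on Wy14643, with PPARα-null lower, and this came with a log2 ratio of -0.50 in PPARα-null livers and one of 0.28 in wild-type livers. Psmg3 had 33.3 and 30.1 in PPARα-null livers, against 41.4 and 34.6 in wild-type livers. Psmg4 was not above background on any array, with 6.77 and 9.43 in PPARα-null livers, against 9.37 and 9.56 in wild-type livers, and is given no fold.

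**Figure D4:**
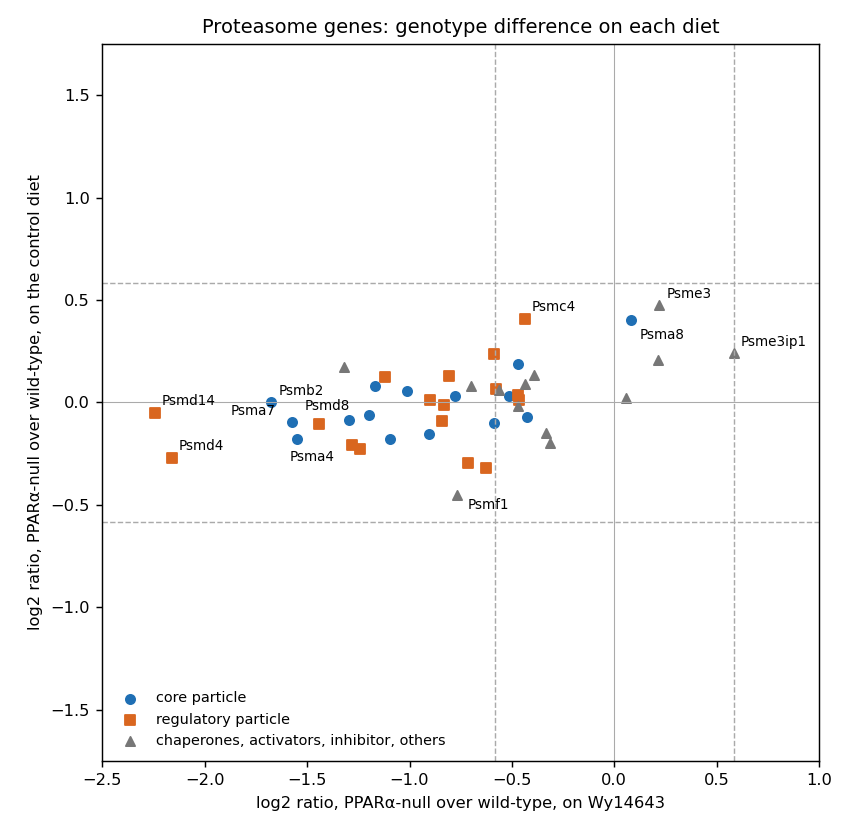
Log2 ratio of intensity, PPARα-null over wild-type, on control food (vertical axis) against the same on Wy14643 (horizontal axis), 1 point per gene, for core particle subunits (circles), regulatory particle subunits (squares) and the other members (triangles), with dashed lines at 1.5-fold. All 45 points lie between -0.45 and 0.48 on the vertical axis, while 27 lie left of the dashed line for 1.5-fold lower on the horizontal axis.

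Read side by side, 22 genes were at least 1.5-fold higher on Wy14643 in wild-type livers and also lower past the threshold in PPARα-null than in wild-type livers on Wy14643. Psmc2, Psmc4, Psmc6 and Psmd12 passed only the first, Psma6, Psmd7, Psmd11, Psmf1 and Psmg2 only the second, and 14 passed neither. Several of these lay close to the threshold: in the diet comparison Psmc6 was just inside at 0.60, and Psma6 (0.56), Psme1 (0.56) and Psmb7 (0.55) were just outside. Both comparisons use the wild-type Wy14643 array, so a gene high on that array tends to pass both. The share of all named genes that passed both was not taken.

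Other probe sets gave a view of the same genes that the choice of the brightest did not use. Of the 45 genes 21 had several probe sets, with 37 probe sets beside those chosen. Among the 26 genes higher on Wy14643 in wild-type livers there were 17 such probe sets, of which 14 had a ratio above 0, 6 were higher past the threshold and none lower. The 6 were all among the 10 whose mean was above background. Psmd4 and Psmb3 had another probe set above background, with log2 ratios of 1.87 and 1.26 in wild-type livers, close to those of the chosen. A dim probe set of Psmd4, whose mean was not above background, had 0.19. The remaining 4 of the 10 did not reach the threshold, with 0.31 for Psmd13, 0.35 for Psmd6, and -0.20 and -0.24 for Psmc6, whose call therefore rests on 1 of 3 probe sets.

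Genes under the threshold by their brightest probe set could also pass it by another. This was so in wild-type livers for Psmb4 (0.93), Psma6 (0.86), Psmd11 (0.67), Psme4 (1.12), Psmg2 (0.77) and Psmf1 (1.70 and 0.76). The Psmf1 probe set with 1.70 had a diet ratio of -0.68 in PPARα-null livers, and on control food its ratio of PPARα-null over wild-type was 0.64, opposite in sign to that of the brightest probe set. In PPARα-null livers 2 of the 37 other probe sets passed the threshold, both lower on Wy14643, this one and a probe set of Psmc6 (-1.04). Whether the probe sets of a gene measure different transcripts is not given in the sources used here.

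**Figure D5:**
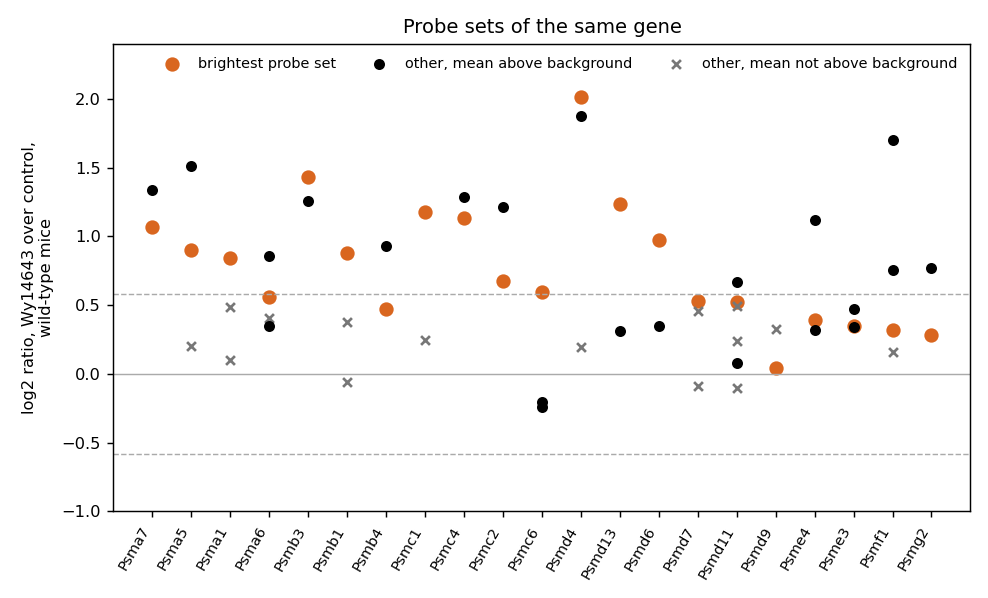
Log2 ratio of intensity, Wy14643 over control food in wild-type livers (vertical axis), for the chosen probe set (large orange points) and the other probe sets (black points where the mean is above background, grey crosses where it is not) of the 21 genes with several, with dashed lines at 1.5-fold. The orange and black points of Psmd4 and of Psmb3 lie close together, but the grey cross of Psmd4 lies far lower, at 0.19. The probe sets of Psmc6 lie on both sides of 0, at 0.60, -0.20 and -0.24.

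The inducible subunits, which replace Psmb5, Psmb6 and Psmb7 in the immunoproteasome of interferon-treated and immune cells, had the opposite direction. Psmb8 had 176 on Wy14643 and 183 on control food in PPARα-null livers, against 26.5 and 156 in wild-type livers. Psmb10 had 122 and 95.1 in PPARα-null livers, against 20.2 and 130.1 in wild-type livers. On the wild-type Wy14643 array both were far under the other 3 arrays, 5.87-fold and 6.43-fold under the wild-type control array. Psmb9 was not above background on the wild-type Wy14643 array, with 39.0 and 34.1 in PPARα-null livers, against 10.4 and 37.0 in wild-type livers, so it was at least 2.61-fold lower on Wy14643 in wild-type livers. The 3 genes had log2 ratios of -0.06 to 0.36 in PPARα-null livers.

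In the counts of gene lists from here on, an array not above background was set to the background level, so that a gene counts only where its bound passed the threshold. Of 17 interferon-induced genes measured, 4 (Gbp3, Igtp, Iigp1 and Tapbp) were lower on Wy14643 in wild-type livers and none was higher, and 4 were higher and none lower in PPARα-null livers. On Wy14643, 9 of the 17 were higher and none lower in PPARα-null than in wild-type livers. Without the floor all 17 had a log2 ratio of Wy14643 over control below 0 in wild-type livers. So had 5590 of all 12393 named genes. Irf7, Ifit1, Ifit2, Rsad2, Tap2 and Usp18 were not above background on either wild-type array, so the sign of their ratios cannot be read. The median over the 17 was -0.59 in wild-type livers and 0.19 in PPARα-null livers. Over the 15 above background on at least 1 array it was -0.69 and 0.20. Of 10 Kupffer cell markers, 8 were lower on Wy14643 in wild-type livers and 9 in PPARα-null livers, and their summed intensity was 685 on Wy14643 and 1338 on control food in PPARα-null livers, against 439 and 1122 in wild-type livers. In a whole liver fewer cells of a type and less RNA per cell cannot be told apart, and the part of these markers in the proteasome values was not tested.

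Other genes of the pathway were counted from lists. These held other proteasome subunits and assembly factors, proteasome-bound ubiquitin enzymes, shuttle factors with the Vcp complex, and regulators of proteasome genes. Of the listed genes 28 were measured. In wild-type livers 8 were higher and 2 lower past the threshold on Wy14643, with a median log2 ratio of 0.43, and none was higher or lower in PPARα-null livers. On Wy14643 2 of the 28 were higher and 8 lower in PPARα-null than in wild-type livers, and on control food none was higher and 1 lower. Of 6 genes for ubiquitin and its activating enzymes none had a probe set of its own in the annotation used.

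Among the other proteasome subunits and assembly factors, 2 of 5 were higher on Wy14643 in wild-type livers. Pomp, the maturation factor of the core particle, had 1198 on Wy14643 and 1110.4 on control food in PPARα-null livers, against 1982 and 1084 in wild-type livers, and so followed the subunits with a log2 ratio of 0.87. Ecpas, an adaptor of the finished proteasome, had a log2 ratio of 1.12. Sem1, a lid subunit whose symbol lies outside the rule, had a log2 ratio of 0.09. Its ratio of PPARα-null over wild-type on Wy14643 was 0.01. None of the 4 proteasome-bound ubiquitin enzymes (Usp14, Uchl5, Ube3a, Ube3c) was at least 1.5-fold higher or lower, with log2 ratios of -0.42 to 0.54. Of 12 shuttle factors and members of the Vcp complex, which extracts ubiquitin-tagged proteins, 5 were higher, namely Nploc4 (1.12), Nsfl1c (0.97), Ubqln2 (0.73), Ufd1 (0.72) and Vcp itself (0.64), and 1 was lower, Zfand2b (-0.59).

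Nfe2l1, the regulator named above, had the largest ratio of the 7 regulators. It had 22.5 on Wy14643 and 20.0 on control food in PPARα-null livers, against 108 and 36.0 in wild-type livers. Its log2 ratio was 1.59 for Wy14643 over control in wild-type livers and 0.17 in PPARα-null livers, and PPARα-null livers were below wild-type on both diets, with log2 ratios of -2.27 on Wy14643 and -0.85 on control food. Mafg, a small Maf protein that pairs with factors of the Nfe2l family, was lower on Wy14643 in wild-type livers, with a log2 ratio of -1.03. Whether either bears on the proteasome genes was not tested.

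For comparison, 2 of 47 cytosolic ribosomal protein genes were higher past the threshold on Wy14643 in wild-type livers and 1 was lower, with a median log2 ratio of 0.20. Of 44 genes for translation initiation and elongation factors 10 were higher and none lower, with a median of 0.23. On Wy14643, 5 of the 47 and 11 of the 44 were lower past the threshold in PPARα-null than in wild-type livers, with medians of -0.22 and -0.23. The 26 of 45 and the median of 0.76 of the proteasome genes were above both, and with 1 array per group this difference was not tested.

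Chaperone genes, mostly cytosolic but with the mitochondrial Hspd1 (0.91) and Hspe1 (0.66) among them, also had many higher values. Of 23 measured, 15 were higher past the threshold on Wy14643 in wild-type livers and none lower, with a median log2 ratio of 0.70, and 1 was higher and 2 lower in PPARα-null livers. This was a share no smaller than the 26 of 45 among the proteasome genes, and the difference was not tested. Of 14 target genes of Nfe2l2, 6 were higher and 2 lower in wild-type livers, with a median of 0.33, and 1 was higher and 1 lower in PPARα-null livers. The wild-type median was 0.35 over the 13 of them above background on at least 1 array.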

How the data were processed

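Per the labels, the authors pooled liver RNA within each group and hybridized it to 1 Affymetrix MOE430A array. The deposited table holds linear-scale intensities from GCRMA, listed as version 2.20 in the processing notes, a method that subtracts background, equalises the arrays and combines the probes of a probe set. Such summaries compress low values, and whether other arrays took part in the normalization is not given in the sources used here. The table has 22690 probe sets, and its 64 control probe sets were not used. The reference annotation gave 1 gene symbol for 20380 probe sets, several for 691 and none for 1555, and only those with 1 were named. Ratios were taken on the log2 scale, and at least 1.5-fold counted as higher or lower, the study's threshold for pooled arrays. Where 1 of 2 arrays was not above background, the fold is given as at least the brighter value over background, and counts in the comparison lists use the same floor, a choice made after the data were seen.

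The members, gene lists, thresholds and alternatives were chosen with earlier results of these data known. Intensities on all 4 arrays are given for the 14 members with the largest ratio in wild-type mice, the catalytic subunits, the activators, the inhibitor and the core assembly chaperones. Other members are given by counts and the extremes of their role, and those named beyond this, such as members near the threshold or with differing probe sets, were chosen after their values were seen. Of the other pathway genes, those past the threshold in wild-type mice were named, with Psmb8, Psmb9, Psmb10, Pomp and Nfe2l1. The counting was tested on simulated data. Alternatives were a filter on dim genes, a floor at background, 32 added to each intensity, centring on the median, cyclic loess, other choices of probe set, a 2-fold threshold and leaving out Psmc3ip, to which leaving out both Psmc3ip and Psme3ip1 was added after the data were seen. Python 3.11.15 (numpy 2.4.6, pandas 2.3.3, matplotlib 3.10.9) and R 4.3.3 (limma 3.58.1) were used.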

Additional observations from a re-analysis of the deposited data

Results flagged for a closer look

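No proteasome gene passed 1.5-fold in opposite directions on Wy14643 in the 2 genotypes. Among the genes of the comparison lists 5 had ratios past 1.5-fold in opposite directions, and with 1 array per group these differences were not tested. The PPARα-null log2 ratio of Wy14643 over control minus the wild-type one was -4.87 for the heat shock protein gene Hspa1b (-1.56 in PPARα-null and 3.31 in wild-type livers) and -1.82 for its partner Dnajb1 (-1.13 and 0.70). It was -1.71 for Pgd, an enzyme of the pentose phosphate pathway (-0.72 in PPARα-null and 0.99 in wild-type livers), and 1.53 for the interferon-induced Igtp (0.76 and -0.77). The stellate cell marker Reln had a difference of 1.5, with 0.80 in PPARα-null and -0.70 in wild-type livers.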

How the results depend on the processing

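Of 138 counts and medians of the proteasome genes under the alternatives, 129 stayed within 1.5 times the count or 0.1 of the log2 median. Of 672 log2 ratios of single members 639 moved by less than 0.28, the standard deviation between the PPARα-null arrays. These ratios cover the members with the largest wild-type ratios, the catalytic subunits, the activators, the inhibitor and the core assembly chaperones, but not Psmc6. Part of the 672 could not move. The floor changes only values under background, and another choice of probe set leaves members with 1 as they were. None of those covered that were above 1.5-fold changed direction. Psmc6 did change direction in wild-type livers, from 0.60 to -0.24 with the second brightest probe set. A 2-fold threshold left 16 members higher on Wy14643 in wild-type livers and 15 lower in PPARα-null than in wild-type livers on Wy14643, against 4.21% and 5.16% of all named genes. Centring each array on its median made 1 member (Psme3ip1) higher in PPARα-null livers on Wy14643. With the second brightest probe set 1 member (Psmf1) was lower on Wy14643 in PPARα-null livers, where the median was -0.057, and 1 (again Psmf1) was higher in PPARα-null livers on control food. The median log2 ratio in wild-type livers was 0.88 without probe sets that may bind several transcripts, and with the median over probe sets the genotype ratio on Wy14643 had a median of -0.59 and the PPARα-null minus wild-type difference of the diet ratios one of -0.64. Of the 26 members higher in wild-type livers, 25 were still so with 32 added, centring or cyclic loess (Psmc6 was not). With the median over probe sets 23 were still so (not Psma1, Psmb1 and Psmc6). With the second brightest probe set 20 were (not Psmc1, Psmd6 and Psmd13 either). Under either choice of probe set, members with only 1 keep it, here and in the values above, and so cannot lose the call. Of the members with several, only Psma5, Psma7, Psmb3, Psmc2, Psmc4 and Psmd4 kept the call with the second brightest. No paired analysis was possible because each group has 1 array. With 1 array per group, dim members such as Psma8, Psmg3 and Psmg4 can be read only in relation to background.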

Other observations

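In the counts below, an array not above background was set to the background level, so a gene above it on no array could not pass. Of 14 proliferation genes measured, 2 were higher past 1.5-fold on Wy14643 in wild-type livers, Mcm6, a subunit of the replicative helicase (1.64), and Pcna, the sliding clamp of DNA replication (0.89), and none was lower. The same 2 genes were lower in PPARα-null than in wild-type livers on Wy14643, and none of the 14 was higher or lower on Wy14643 in PPARα-null livers.

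The other cell type markers moved as follows. Of 8 endothelial markers, 3 (Clec4g, Fcgr2b and Tek) were lower on Wy14643 in PPARα-null livers and 2 in wild-type livers. Of 7 stellate cell markers 2 were higher in PPARα-null livers and 2 lower in wild-type livers. Of 7 hepatocyte markers none was lower in PPARα-null livers and 3 were lower in wild-type livers, with -1.55 for Tat, an enzyme of tyrosine breakdown. None of 6 T and B cell markers was higher or lower in either genotype, but only 2 of them were above background on any array. Of 4 cholangiocyte markers only Sox9 passed the threshold, with 0.16 in PPARα-null livers and 0.70 in wild-type livers. It was also the only 1 above background on any array. The part of these cell types in the proteasome values was not tested.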
